A study of Mus musculus with 5 samples.

Results

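The genes examined here were the canonical histone genes and the H2A variant genes of the mouse, including H2afy and H2afy2, which encode macroH2A. They were taken by symbol from the GENCODE M21 annotation of mm10 as the autosomal protein-coding genes named Hist1h, Hist2h, Hist3h, Hist4h or H2af, which gave 73 of 20807 genes. Their classes were H1 with 6 genes, H2A with 18, H2B with 18, H3 with 12, H4 with 13, H2A variants with 4 and macroH2A with 2. Chromatin was immunoprecipitated with an anti-GFP antibody from 3T3-L1 cells, a mouse pre-adipocyte line, that stably expressed macroH2A1.2-GFP after lentiviral transduction. Pre-adipocytes (2 replicates) were taken before differentiation, and mature adipocytes (2 replicates) after induction with IBMX, dexamethasone and insulin. All 4 samples carried the tagged histone and shared a single control library, which its title labels as made without antibody. The measurement is therefore of the tagged and overexpressed isoform, and no group of cells without it was analysed here.

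Conditions were taken from the sample titles. For the 2 mature adipocyte samples another label, the description, reads pre_diff, so every difference between conditions below depends on the titles. The description of the control reads GFP_pre_diff_aGFP, whereas its title reads noAB and its antibody is given as none. What the control was, behind every control read count and fold enrichment, therefore also rests on the title. The authors call the replicates biological, but nothing in the labels says that they were separate cultures. With 2 against 2 samples, an exact permutation test cannot give p below 0.333.

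Most histone protein is made during DNA replication from short genes, mostly without introns, whose mRNAs end in a stem-loop instead of a poly(A) tail. These genes are gathered in clusters, which keeps many near-identical copies of each histone close together. The variant genes, such as H2afz and H2afy, lie singly, usually have introns and are expressed outside S phase as well. MacroH2A carries a large globular macro domain behind its H2A-like part and is generally found in broad domains of chromatin that is little transcribed.

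Member genes lying within 100 kb of each other were joined into blocks of at least 3 genes, each extended by 10 kb on both sides. This gave 4 blocks, which together held 62 genes. The Hist2 block (chr3:96209865-96280132) held 10 genes. On chromosome 13, the Hist1 proximal block (chr13:21705763-21847530) held 18 genes, the Hist1 middle block (chr13:22025164-22053676) held 5 and the Hist1 distal block (chr13:23521050-23774406) held 29. The other 11 genes lay in no block, namely Hist1h2ba, Hist1h2aa, Hist3h2a, Hist3h2ba, Hist4h4 and the 6 H2af genes.

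The data are regions of enrichment called in each sample, with the ChIP and control reads in each. There were 36468 and 38546 regions in the pre-adipocyte samples and 59375 and 61196 in the mature adipocyte samples. The ChIP library size relative to the control, derived from the deposited fold enrichment, was 1.2 and 0.549 in pre-adipocyte replicates 1 and 2, and 1.23 and 1.21 in the mature replicates. Pre-adipocyte replicate 2 was thus the shallow library, whereas pre-adipocyte replicate 1 was as deep as the mature ones. Autosomal regions had a median length of 5800, 3000, 3600 and 3400 bases in pre-adipocyte replicates 1 and 2 and mature replicates 1 and 2.

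Because only uniquely mapped reads of 50 bases were kept, the sequence shared between the copies of a histone gene bears on where reads can be counted. The stretches below are the 50-base words held by the most genes of the H2A and H4 classes, each lying inside the coding sequence of the named example gene (mm10, GENCODE transcripts). They are shown because no read with such a sequence can be placed at a single gene.
H2A, as in Hist1h2ab (chr13:23751310-23751359, plus strand): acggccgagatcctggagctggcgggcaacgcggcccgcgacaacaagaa
H4, as in Hist1h4a (chr13:23760916-23760965, minus strand): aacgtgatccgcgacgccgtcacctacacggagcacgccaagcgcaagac
The H2A word was present in transcripts of 16 member genes, both in Hist1 and in Hist2, and the H4 word in 11. Over each gene's transcripts, the median share of 50-base words also found in a transcript of another, non-overlapping gene was 73% for H2A genes, 57.2% for H3, 44.0% for H2B and 39.5% for H4. For the H1 genes, the linker histones, it was 1.12%, and no H1 gene exceeded 8.54%. H2afy shared 0% and H2afy2 6.68%. The genome itself was not searched, so these shares cover annotated transcripts only and say nothing of the DNA between genes.

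A region lay within 10 kb of 17 and 9 of the 73 genes in the pre-adipocyte samples (23.3% and 12.3%), and of 42 and 36 in the mature adipocyte samples (57.5% and 49.3%). Over all autosomal protein-coding genes the shares were 35.0% and 30.3% in pre-adipocytes and 41.4% and 41.6% in mature adipocytes. The histone genes were thus below the background in both pre-adipocyte samples and above it in both mature ones. Among 1180 other genes of at most 2 kb, without olfactory and vomeronasal receptor genes, the shares were 28.0%, 24.2%, 33.2% and 33.9% in the same order. The mean number of genes with a region came to 13 ± 5.66 (SD, n = 2) before and 39 ± 4.24 after differentiation, and the conditions did not overlap (exact permutation test, two-sided p = 0.333, the smallest possible). The position above the background in mature adipocytes depended on the window and on the strength of the regions. In both mature replicates, the share was 1.37% against 17.8% of all genes on the gene body alone, 19.2% against 26.8% within 5 kb, 39.7% against 34.4% within 10 kb and 63% against 44.8% within 20 kb. Within 10 kb it was 19.2% against 29.5% at an FDR of at most 1e-05, and 2.74% against 14.4% at a fold enrichment of at least 2. The deep pre-adipocyte replicate, with 17 genes, was below both mature samples of similar depth. Neighbouring genes share regions, so these genes are not independent counts.

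**Figure D1:**
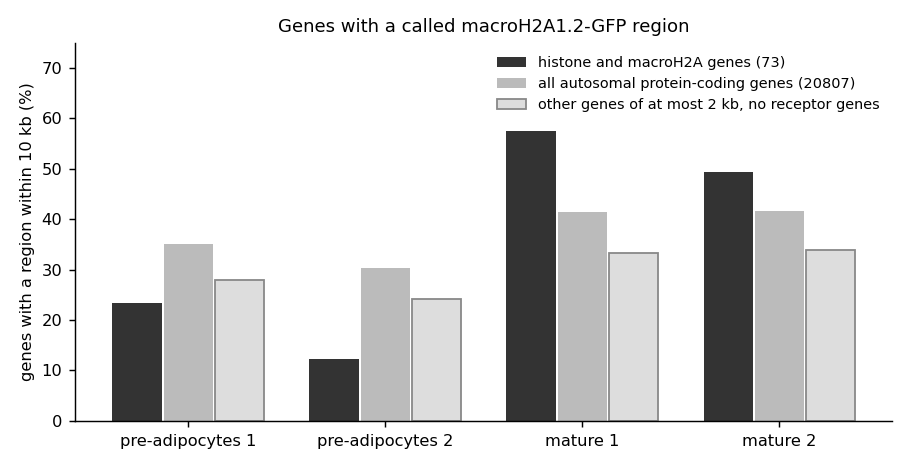
Percentage of genes with a called macroH2A1.2-GFP region on the gene body or within 10 kb of it, in each of the 4 samples, for the 73 histone and macroH2A genes, all autosomal protein-coding genes and other genes of at most 2 kb. The dark bars stand at 23.3% and 12.3% in pre-adipocytes, under the background of 35.0% and 30.3%, and at 57.5% and 49.3% in mature adipocytes, over 41.4% and 41.6%.

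In both pre-adipocyte replicates 5 genes had a region (6.85%, against 24.2% of all genes), and in both mature replicates 29 did (39.7%, against 34.4%). The 5 were Hist1h2bl, Hist1h2ai and Hist1h3h at the start of the proximal block, and Hist1h2be and Hist1h1e in the distal block. These 5 also had one in all 4 samples (background 21.1%), but at Hist1h2bl, Hist1h2ai and Hist1h3h no single region was present in all 4. A region in both mature replicates and in neither pre-adipocyte replicate was found for 13 genes (17.8%, against 4.86%), and the reverse for 0 genes (background 0.913%). Of the 13, 10 lay in the distal block, among them Hist1h1d, Hist1h4f, Hist1h3e and Hist1h4b. That block held 6, 2, 15 and 9 regions in pre-adipocyte replicates 1 and 2 and mature replicates 1 and 2. Its 1 Mb flanks held 14, 9, 40 and 45, so the higher numbers in mature adipocytes were not particular to the block. In all these counts of genes, the regions of different samples did not have to overlap. Hist1h1d, Hist1h4f, Hist1h3e, Hist1h2bh and Hist1h3f had a region that overlapped between the mature replicates (joined, chr13:23550001-23555000). The same held for Hist1h4h and H2afz (joined, chr13:23513601-23522400 and chr3:137856401-137862600). At Hist1h4b, Hist1h2ab, Hist1h3b, Hist1h4a, Hist1h4i and Hist1h4j the regions of the mature replicates lay apart. A region in any sample was found for 49 genes (67.1%, against 53.7%), which leaves 24 genes with none. These 24 comprised all 10 genes of the Hist2 block, 10 of the proximal block, 2 of the distal block, and H2afx and Hist3h2a.

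Every class included genes with and without a region, except for macroH2A. In mature replicates 1 and 2, a region was present near 4 and 4 of the 6 H1 genes, 9 and 6 of the 18 H2A genes, 11 and 10 of the 18 H2B genes, 7 and 5 of the 12 H3 genes, and 7 and 9 of the 13 H4 genes. In pre-adipocyte replicates 1 and 2, the numbers were 3 and 1 for H1, 4 and 2 for H2A, 7 and 3 for H2B, 2 and 1 for H3, and 1 and 1 for H4. Each of these classes had its highest number in a mature sample and its lowest in a pre-adipocyte sample. The share of all autosomal protein-coding genes was also higher in the mature samples (41.4% and 41.6%) than in the pre-adipocyte samples (35.0% and 30.3%). Neighbouring genes of different classes share regions, so the classes are not independent counts.

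Among the linker histone genes, Hist1h1e had the most of its surroundings inside regions, with 40.1%, 13.7%, 36.5% and 30.1% of the gene and 10 kb on each side covered in pre-adipocyte replicates 1 and 2 and mature replicates 1 and 2. This was also the highest mean of all 73 genes. Hist1h1c came next, with 30.6%, 0%, 32.5% and 24.9%. The shallow pre-adipocyte replicate had no region there, whereas the other 3 samples had similar values. At Hist1h1d the values were 0%, 0%, 19.7% and 15.3%, with no overlap between the conditions. Hist1h1t, the testis-specific linker histone, had 23.0%, 0%, 0% and 18.8%. Hist1h1a was covered in mature replicate 1 alone, at 15.4%, and Hist1h1b in no sample.

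The core histone genes with the most covered surroundings did not follow 1 pattern. Hist1h2bl, at the edge of the proximal block, had 39.4% and 19.8% in pre-adipocytes and 10.0% and 9.81% in mature adipocytes. Its neighbours Hist1h2ai and Hist1h3h shared the same regions and were likewise higher in pre-adipocytes, at 36.2% and 16.6% against 6.87% and 9.81% for Hist1h2ai, and 30.1% and 10.5% against 6.86% and 9.80% for Hist1h3h. At this edge, then, the order of the conditions was opposite to that of the count of genes. In the distal block, Hist1h2bc had 29.6%, 0%, 12.5% and 25.8%, and Hist1h4c had 23.1%, 0%, 4.10% and 27.2%. Hist1h2ac had 20.5%, 0%, 16.9% and 16%, and Hist1h3c had 12.7%, 0%, 17.6% and 26.3%. In these 4 genes only the shallow replicate lacked a region. Hist1h2aa, a testis histone gene outside the blocks, had 8.10%, 0%, 33.6% and 9.81%.

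The regions themselves numbered 8, 6, 26 and 18 in pre-adipocyte replicates 1 and 2 and mature replicates 1 and 2. Their means were 7.0 ± 1.41 and 22.0 ± 5.66 (SD, n = 2, exact permutation test, p = 0.333). All autosomal regions numbered 36165, 38232, 58780 and 60593 in the same order, and those in the 1 Mb flanks of the blocks 42, 32, 74 and 82. Regions were thus more numerous in mature adipocytes outside the histone genes as well. Joined over samples where they overlapped or touched, the regions at the histone genes formed 36 regions. Of these, 22 were present in a single sample (61.1%, against 41% of all 61708 regions joined in the same way), 9 in 2 samples (25%, against 22.8%), 4 in 3 (11.1%, against 15.5%) and 1 in all 4 (2.78%, against 20.7%). Among the single-sample regions, 13 were of mature replicate 1, 7 of mature replicate 2, 2 of pre-adipocyte replicate 2 and none of pre-adipocyte replicate 1.

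Enrichment in the regions was low. The median fold enrichment was 1.54, 2.5, 1.77 and 1.62 in the 4 samples, with the highest value in the shallow library. In the 1 Mb flanks of the blocks it was 1.59, 2.13, 1.88 and 1.87, and over all autosomal regions 1.61, 2.01, 1.79 and 1.81. The difference between regions at the histone genes and those in the flanks averaged -0.0104 ± 0.268 (SD, n = 4, exact sign-flip permutation test, p = 1), with values of -0.0504, 0.372, -0.112 and -0.251. The sign of this difference was not the same in all samples. Of the 8, 6, 26 and 18 regions at the histone genes, 0, 4, 7 and 2 reached a fold enrichment of 2. The autosomal median itself was above 2 in the shallow library alone. Of the regions at the histone genes, 62.5%, 33.3%, 57.7% and 61.1% lay below the autosomal median of their sample.

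The single region present in all 4 samples lay upstream of Hist1h1e (chr13:23623001-23632000). ChIP reads were 313 over 8800 bases called, 56 over 3000, 307 over 8000 and 248 over 6600, with 172, 60, 159 and 133 control reads in the same intervals. Per kilobase and relative library size, the ChIP reads were 29.6, 34.0, 31.3 and 31.2 over intervals of these unequal lengths. Density inside a called interval is bound by the caller's threshold, so these values do not compare the same DNA. With edgeR's quasi-likelihood test over 12758 regions present in all 4 samples, its log2 fold change from pre-adipocytes to mature adipocytes was -0.04 ± 0.13 (SE, adjusted p = 0.96). This compares reads over intervals called separately in each sample, with their length as an offset, and without the offset the value was 0.16 ± 0.47 (adjusted p = 0.909). It was not among the 13 regions past an adjusted p of 0.05, which made up 0.102% of those tested. No other region at a histone gene entered this test, since none was present in all 4 samples.

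The called DNA lay mostly beside the genes. A region overlapped the body of 5 of the 73 genes in any sample (6.85%), against 31.1% of all genes and 19.2% of the other genes of at most 2 kb. A shorter body has fewer bases to overlap. Gene lengths were not matched beyond the limit of 2 kb, and the part of length in this difference was not tested. Only Hist1h1d had a body region in the 2 replicates of a condition, with 23.4% and 12.6% of its 7425 bases covered in mature replicates 1 and 2. Hist1h4f (mature replicate 2), Hist1h2af (mature replicate 1) and Hist1h4j (mature replicate 1) had such a region in a single sample. Hist1h2be had one in pre-adipocyte replicate 2 and mature replicate 1, with 29 and 64 ChIP reads against 20 and 34 control reads. It lay inside the 37455 bases of a spliced gene model.

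In the 3 Hist1 blocks, regions covered 12.9%, 2.38%, 12.5% and 12.8% of the DNA outside the bodies of the histone genes. They covered 0%, 1.27%, 5.01% and 1.41% of those bodies. The DNA outside included the 10 kb at each end of a block and other genes, such as Hfe, which some of the regions overlapped. The share outside the bodies was higher in 4 of 4 samples, by 8.22 ± 5.25 percentage points (SD, n = 4, exact sign-flip permutation test, p = 0.13, the smallest possible). Without the long Hist1h2be model the difference was 8.27 percentage points. Word sharing was not measured in the DNA outside the bodies, and its part in this difference was not tested.

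**Figure D2:**
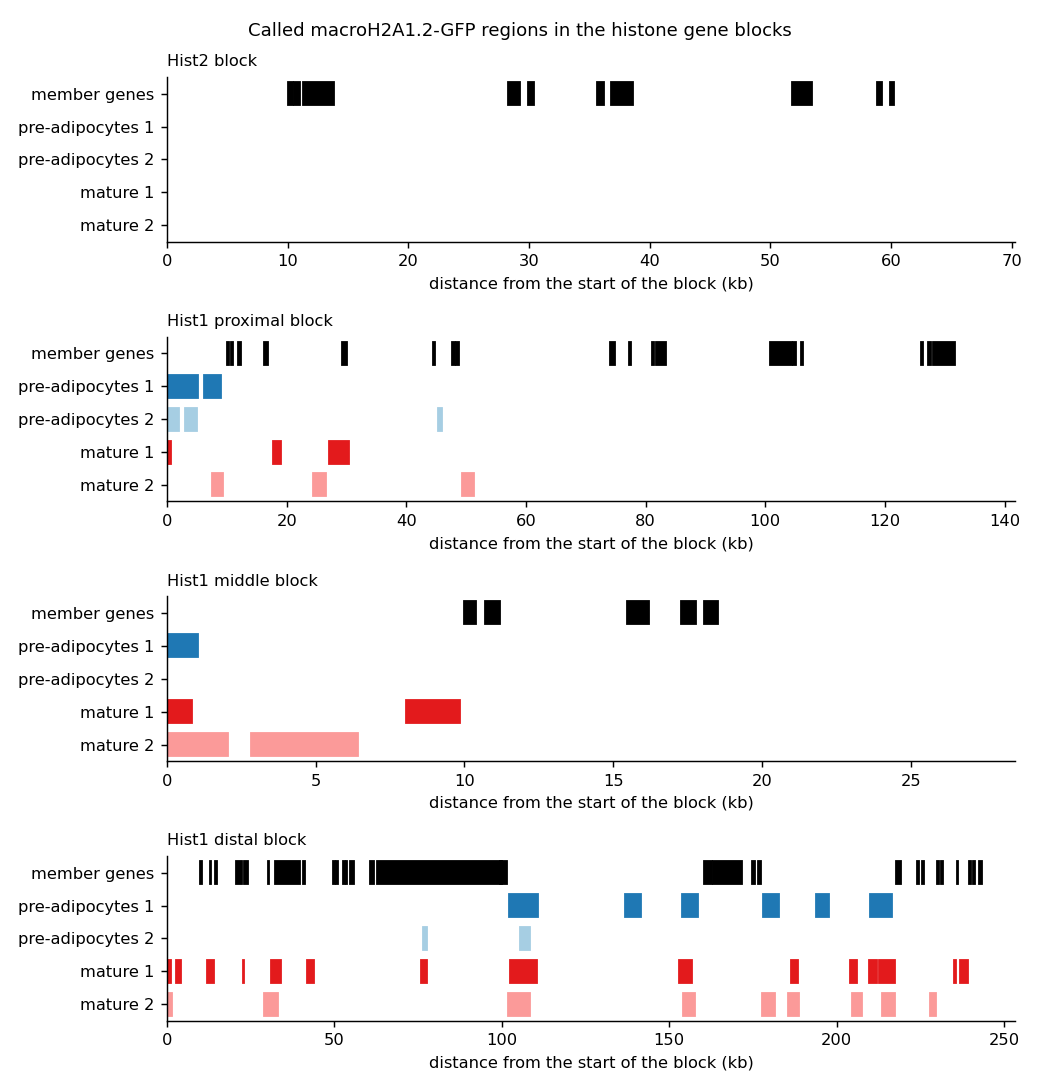
Maps of the 4 histone gene blocks, with distance from the start of each block in kb on the x axis, member gene bodies in black and the called regions of each sample in colour. The Hist2 block is empty in all 4 samples, and most of the regions in the Hist1 blocks lie outside the bodies of the member genes.

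Around the starts of the genes, 0%, 0%, 4.11% and 2.74% of the 73 start sites lay inside a region, against 6.14%, 2.30%, 5.78% and 5.43% of all autosomal protein-coding genes. At 2000 bases upstream the shares were 5.48%, 0%, 11.0% and 15.1% for the histone genes, and 11.5%, 5.37%, 10.8% and 10.3% for all genes. Both sets therefore had fewer starts than upstream positions inside regions, apart from the shallow sample for the histone genes, in which both shares were 0%.

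**Figure D3:**
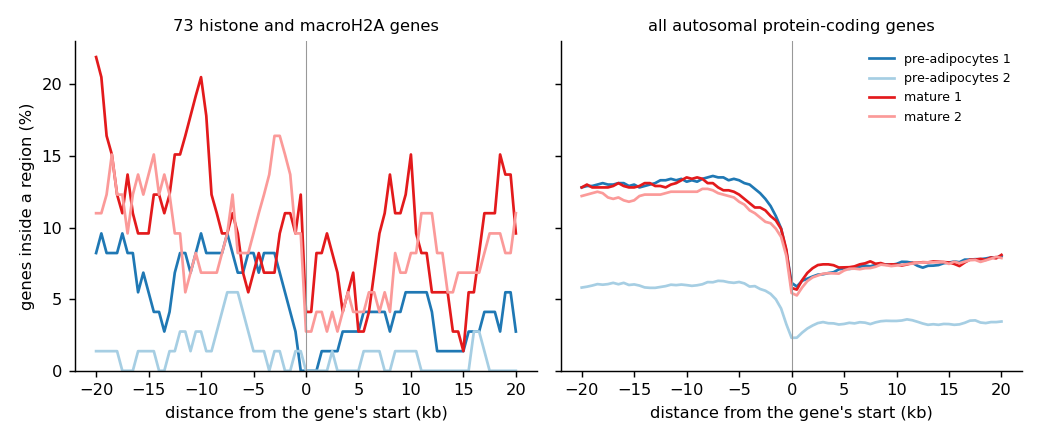
Percentage of genes inside a called region at each distance from the gene's start in kb (negative values upstream), one line per sample, for the 73 histone and macroH2A genes and for all autosomal protein-coding genes. At the start itself the histone genes stand at 0%, 0%, 4.11% and 2.74%, and all genes at 6.14%, 2.30%, 5.78% and 5.43%.

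The 250 bases before the start were available from RefSeq (GRCm38.p6) for 67 of the 73 genes, as 68 promoters. They overlapped a region in 0 and 0 cases in the pre-adipocyte samples and in 5 and 3 cases in the mature samples. Over 31396 autosomal promoters the shares were 10.4% and 4.44% in pre-adipocytes and 10.3% and 9.73% in mature adipocytes, against 0%, 0%, 7.35% and 4.41% for the histone promoters. The 3 promoters below are shown as examples under a mature adipocyte region that contain no annotated exon. Capitals mark the letters CCAAT and TATAAA, searched on both strands as CCAAT or ATTGG and as TATAAA or TTTATA.
Hist1h1c (chr13:23738557-23738806, plus strand): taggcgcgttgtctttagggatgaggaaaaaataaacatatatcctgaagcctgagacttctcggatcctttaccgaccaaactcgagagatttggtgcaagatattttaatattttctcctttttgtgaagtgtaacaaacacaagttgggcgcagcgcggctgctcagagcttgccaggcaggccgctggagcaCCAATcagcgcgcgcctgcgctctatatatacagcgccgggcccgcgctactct
Hist1h2af (chr13:23533625-23533874, plus strand): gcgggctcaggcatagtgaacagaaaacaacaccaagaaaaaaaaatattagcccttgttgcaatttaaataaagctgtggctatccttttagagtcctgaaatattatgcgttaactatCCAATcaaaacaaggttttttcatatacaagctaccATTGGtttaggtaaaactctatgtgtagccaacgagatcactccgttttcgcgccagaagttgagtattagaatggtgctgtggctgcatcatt
Hist1h4f (chr13:23551669-23551918, minus strand): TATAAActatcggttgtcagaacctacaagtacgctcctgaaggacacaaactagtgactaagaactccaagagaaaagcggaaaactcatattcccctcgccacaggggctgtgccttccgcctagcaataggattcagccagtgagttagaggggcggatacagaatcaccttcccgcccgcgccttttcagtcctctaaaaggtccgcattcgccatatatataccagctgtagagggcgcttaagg
The Hist1h1c promoter was under a region in both mature replicates, where the region reached only its 5' end. The Hist1h2af promoter was inside a region in mature replicate 1 and the Hist1h4f promoter in mature replicate 2. CCAAT was present in 55 of the 68 promoters (80.9%) and in 33.7% of all autosomal promoters. TATAAA was present in 29 of 68 (42.6%) and in 12.4% of all. The histone promoters under a region thus included some with either motif and some with neither, such as that of Hist1h4j, and the letters say nothing of whether a factor was bound.

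Compared with their 1 Mb flanks, the 4 blocks together had 8.60%, 1.83%, 9.32% and 8.78% of their length inside regions, and the flanks 3.52%, 1.74%, 4.70% and 5.60%. The blocks were higher in 4 of 4 samples, by 3.24 ± 2.25 percentage points (SD, n = 4, exact sign-flip permutation test, p = 0.13, the smallest possible). In the shallow sample the difference was 0.0916 points. Regions covered 11.7%, 5.80%, 12.3% and 11.9% of the autosomes, measured from the first to the last region of each, so the blocks were above their flanks and below the autosomes in every sample.

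The 4 blocks differed. The Hist2 block had no region in any sample, whereas its flanks were covered at 4.48%, 2.07%, 4.43% and 4.78%. The nearest region to any Hist2 gene was 50.3, 53.3, 32.7 and 39.7 kb away. The proximal block had 5.67%, 3.41%, 3.84% and 4.37% against flanks of 1.61%, 0.962%, 1.22% and 2.21%, and was higher in 4 of 4 samples. The middle block had 3.64%, 0%, 9.25% and 19.8%, and the distal block 13.2%, 1.66%, 15% and 12.5%. In the middle and distal blocks, the shallow sample was the only one to be lower than the flanks.

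The flanks were uneven. Clusters of olfactory and vomeronasal receptor genes adjoin the Hist1 blocks. The 1 Mb above the middle block, with 26 receptor genes among its 26 protein-coding genes, was covered at 0% in all 4 samples. The flank above the distal block, with 11 protein-coding genes and no receptor gene, was covered at 7.84%, 3.37%, 13.9% and 16.2%. It exceeded the distal block in pre-adipocyte replicate 2 and in mature replicate 2. When receptor genes and 10 kb around them were left out, the difference between blocks and flanks was 1.59 percentage points (exact sign-flip permutation test, p = 0.25). The direction turned, to -0.262 points, when regions under a fold enrichment of 2 were left out, and to -2.89 points when the DNA between the Hist1 blocks was counted as part of the cluster.

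**Figure D4:**
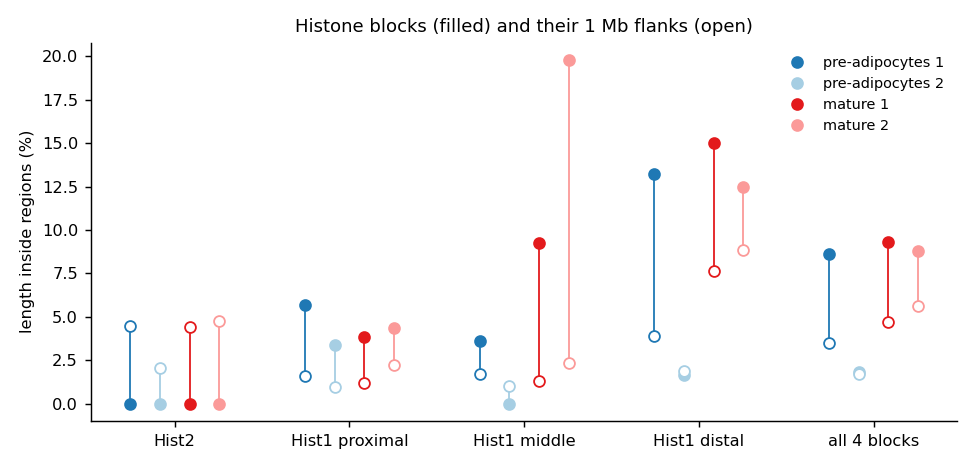
Percentage of length inside called regions for each histone block (filled points) and its 1 Mb flanks (open points), with 1 pair of points per sample. The Hist2 points lie at 0% under their flanks in all 4 samples, and the proximal block points lie above theirs in all 4.

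Between the conditions, the blocks were covered at 5.21 ± 4.79% before and 9.05 ± 0.378% after differentiation (SD, n = 2), a difference of 3.84 percentage points (exact permutation test, p = 0.333). This difference rested on pre-adipocyte replicate 2. It was 0.452 points without that sample and 7.22 points without pre-adipocyte replicate 1. The flanks had means of 2.63% and 5.15%. By covered length, therefore, the deep pre-adipocyte replicate was near the mature samples, although it had fewer genes with a region and fewer, longer regions.

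The macroH2A genes had no region on their bodies. H2afy (chr13:56073619-56136361, minus strand), the gene of macroH2A1 itself, had a region within 10 kb in mature replicate 1 only. It lay 8039 bases upstream (chr13:56144401-56147200), where 101 ChIP reads faced 46 control reads (fold enrichment 1.79). Elsewhere the nearest region was 44218, 24018 and 13239 bases away. H2afy2 (chr10:61738665-61784147, minus strand), which encodes macroH2A2, had a region 6253 bases upstream in pre-adipocyte replicate 2 (43 ChIP and 25 control reads) and 9253 bases upstream in mature replicate 1 (63 and 27 reads). These lay next to each other without overlap. Among 2384 genes of 40 to 70 kb, the size range of both, a body region was present in 23.6%, 21.8%, 30.4% and 30.4%. The lentiviral copy of the macroH2A1.2 coding sequence could add reads at H2afy exons in the ChIP samples. The same would hold for the control only if its cells carried that copy. The part of this copy was not tested.

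The other variants also had no region on their bodies. H2afz, which encodes H2A.Z, had none near it in pre-adipocytes, where the nearest was 77286 and 56286 bases away. In mature adipocytes a region lay 5686 and 1886 bases upstream, with 74 ChIP and 34 control reads in replicate 1 and 180 and 78 in replicate 2 (fold enrichment 1.77 and 1.91). None of the other 3 variant genes of this class had a region in more than 1 mature sample. H2afj had a region 2043 bases upstream in mature replicate 2, which also lay 185 bases from Hist4h4, with 73 ChIP and 34 control reads. H2afv had a region in mature replicate 1 at 9557 bases, close to the limit of 10 kb, and in mature replicate 2 the nearest was just outside, at 13157 bases. H2afx, the variant phosphorylated at DNA breaks, had its nearest region 67293 bases away or farther in every sample.

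The limit of 10 kb had genes on both sides. In mature replicate 1 the gene just inside was H2afv at 9557 bases and the gene just outside was Hist1h3d at 10762. In mature replicate 2 they were Hist1h4a at 9891 and Hist1h2ag at 10859, in pre-adipocyte replicate 1 Hist1h2bk at 9669 and H2afv at 12628, and in pre-adipocyte replicate 2 Hist1h3h at 6858 and Hist1h2bm at 11243.

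Genes that supply and handle histones were examined as a separate list. Of 38 listed genes, 37 were found. A region lay within 10 kb of 7 and 8 of these 37 in pre-adipocytes and 10 and 11 in mature adipocytes. The background was 35.0%, 30.3%, 41.4% and 41.6% of all genes in the same order. In both replicates of a condition a region lay near 6 and 9 of the 37 (background 24.2% and 34.4%). The list was below the background in each of these counts. For no gene of the list was there a body region in the 2 replicates of a condition, against 11.8% of all genes in pre-adipocytes and 17.8% in mature adipocytes. In single samples such a region was present at Aplf (mature replicate 2), which encodes a histone chaperone, at Chaf1b (mature replicate 2), a subunit of the chromatin assembly factor CAF-1, and at H3f3b (pre-adipocyte replicate 2), a gene of the variant H3.3. Npat, the activator of histone gene transcription, had no region in any sample.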

How the data were processed

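The authors aligned single reads of 50 bases to mm10 with Bowtie 1.1.2, keeping unique alignments of at most 2 mismatches, dropped duplicate reads (Picard) and ran SICER 1.1 on each sample. The deposited tables give raw counts of ChIP and control reads, the p-value and FDR of the authors' SICER run, and the fold enrichment, a ratio scaled by library size. The largest deposited FDR was 0.001. Here, genes came from GENCODE M21, and overlap needed 1 base. Blocks, flanks and windows were defined with 100 kb, 1 Mb and 10 kb. The members and lists were chosen with earlier results of these data known. Genes named were all H2af genes, histone genes with a body region, the 10 with the largest mean covered share, and list genes with a body region. Regions or genes outside this rule, such as H1 genes and single examples, were chosen after their values were seen.

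Counts in regions present in all 4 samples were fitted with edgeR 4.0.16 (TMM on counts per called length, with region length as offset, Benjamini-Hochberg over all regions). The code was tested on simulated data, in which 99% of regions with a log2 change of 1 and 52% with 0.5 were recovered among 12758. In the same simulation 6 unchanged regions were called. It assumed a fixed variation between replicates and took the called lengths as given, without calling regions. These rates are therefore not the power of the test on the real counts. DESeq2 1.42.0 was an alternative. Same-numbered samples did not deviate together (r = 0.00656) in read density inside regions called in all 4 samples, and replicate numbers were not taken as pairs. That density is bound by the caller's threshold, so the value cannot tell whether same-numbered samples were handled together. Total library sizes and coverage tracks were not used here.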

Additional observations from a re-analysis of the deposited data

How the results depend on the processing

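The 5 genes with a region in both pre-adipocyte replicates became 0 on the gene body alone, 3 within 5 kb and 0 at a fold enrichment of at least 2, and 9 to 17 when only 1 replicate was used. The 29 genes of both mature replicates became 1, 14 and 2 under the same 3 settings, 46 within 20 kb, 14 at an FDR of at most 1e-05, and 36 to 42 with 1 replicate. The histone genes were above the share of all genes in both mature replicates within 10 kb (also with an overlap of at least 1 kb) and 20 kb, and below it under the other 4 of these settings. The difference between blocks and flanks turned to -0.262 percentage points at a fold enrichment of at least 2 and to -2.89 when the whole span of each cluster was taken, and was 2.63 to 4.29 with 1 sample left out. Its difference between conditions was 0.452 to 7.22 with 1 sample left out. The difference in fold enrichment was 0.0312 at an FDR of at most 1e-05, and -0.138 to 0.0698 with 1 sample left out (0.00292 without pre-adipocyte replicate 1, 0.0235 without mature replicate 1 and 0.0698 without mature replicate 2). In the Hist1 blocks, the excess of the DNA outside histone gene bodies over the bodies was 6.68 to 10.6 points with 1 sample left out. The cause of these changes was not tested.

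The count of 13 regions past the threshold was 26 with the replicate block, 0 with library sizes from the fold enrichment (edgeR, with 62 at an unadjusted p under 0.05), 2 with DESeq2, 7 without the length offset, 50 with at least 50 reads in every sample, and 1 to 239 with 1 sample left out (151 without pre-adipocyte replicate 1, 239 without replicate 2, 5 without mature replicate 1 and 1 without replicate 2), where the remaining sample of a condition was assumed to vary like the others. The region at Hist1h1e was past it in none, and its log2 fold change under the replicate block was -0.02 (adjusted p = 0.983). Since 2 samples per condition and shallow coverage limit the data, absence of a region does not show absence of macroH2A1.2-GFP.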
